A study of Mus musculus with 9 samples.

Results

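Mitochondrial ribosomal proteins are the protein components of the ribosome inside mitochondria, and they are described here across 9 left ventricle RNA libraries of mice. Members were the table rows whose symbol begins with Mrpl or Mrps followed by a digit, without names ending in -ps, which mark pseudogenes. The rule uses names only and found 78 of the 30128 rows, 49 named Mrpl for the large subunit and 29 named Mrps for the small subunit. The libraries fall into 3 groups of 3. Control hearts came from wild-type animals for which no virus is named. The remaining groups were db/db, a genotype that lacks a working leptin receptor and leads to obesity and diabetes, and the labels give neither strain nor age. The null-virus group carried an empty adeno-associated virus of serotype 9, and the USP28-virus group the same serotype carrying the deubiquitinating enzyme USP28 under a cardiac troponin T promoter that drives expression in cardiomyocytes. Genotype and virus therefore cannot be told apart in either comparison with control, and only the 2 db/db groups differ, by their labels, in the viral cargo alone. Whether each library is a different animal is not stated, and p-values here describe library-to-library spread, which may be technical.

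Mitochondrial DNA encodes the ribosomal RNAs and a small set of respiratory chain subunits, and all of the ribosome's proteins are made from nuclear genes in the cytosol and imported. The large subunit joins amino acids, and the small subunit reads the messenger RNA. Many of the proteins have no bacterial counterpart and form a protein-rich outer layer. The heart, which depends on oxidative phosphorylation, is among the tissues affected when human members are faulty.

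Promoters of members were examined because these genes are spread over 17 chromosomes and 12 of them (15.4%) were called lower in 1 comparison below. Of all genes tested, 6.58% were lower in that comparison. Whether promoter motifs had a part in those calls was not tested. RefSeq promoter windows on GRCm38.p6, from 250 bases before to 50 bases after a RefSeq start, matched 69 of the 78 members, with 75 windows in all. Motifs were searched as exact letters on both strands, and matches of different motifs overlapped in 0 places in the members' windows. The ETS motif CCGGAAG, bound by the GABP factor among others, was present in 37.7% of members and 20.2% of the 8876 tested genes with a window. The core of the NRF1 motif, GCATGCGC, was present in 11.6% of members and 5.94% of tested genes. The YY1 motif AAGATGGCG was present in 11.6% of members and 3.79% of tested genes. At least 1 of these 3 motifs was found in 36 of 69 members (52.2%) and 27.4% of tested genes. In cytosolic ribosomal proteins, ETS was in 40.6%, the NRF1 core in 4.69%, YY1 in 4.69% and at least 1 in 50%. In nuclear-encoded respiratory chain subunits, the shares were 24.2%, 15.2%, 10.6% and 40.9%, in the same order. The TATA letters TATAAA were in 7.25% of members and 8.79% of tested genes, the letters CCAAT in 39.1% and 42.5%, and the ERR motif TCAAGGTCA in 0 members and 0.327%. Of 31 ETS matches, 28 began within 100 bases of the RefSeq start of their window, as did 10 of 14 NRF1 core matches and 7 of 8 YY1 matches. For some members that start lies far from the start in the table of values. The distance was 25171 bases for the Mrpl48 window with an ETS match, 17016 for Mrpl33, 7979 for Mrps24 and 3185 for Mrpl35. Over all 27025 genes with a window, the shares were 9.93% for ETS, 3.05% for the NRF1 core and 1.64% for YY1. A match is a run of letters and not shown to be bound here.

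The windows below belong to members that were lower than control with USP28 virus, and are shown for the motifs they hold, with capitals marking a match. Mrps22 (chr9:98601630-98601929, minus strand) has 1 ETS match. Mrps27 (chr13:99344536-99344835, plus strand) has an ETS match on the opposite strand and a YY1 match. Mrpl37 (chr4:107066817-107067116, minus strand) has a YY1 match just after its start. Mrps11 (chr7:78782881-78783180, plus strand) has a YY1 match on the opposite strand, upstream of its start. Mrpl10 (chr11:97041332-97041631, plus strand) has an NRF1 core. Mrps2 (chr2:28467816-28468115, plus strand) has none of the 3 motifs. The windows shown over-represent motif holders among the lower members. Of those not shown, Mrpl34 has an ETS match, Mrpl45, Mrpl46, Mrpl50 and Mrps25 have none of the 3 motifs, and Mrpl19 has no window.
Mrps22: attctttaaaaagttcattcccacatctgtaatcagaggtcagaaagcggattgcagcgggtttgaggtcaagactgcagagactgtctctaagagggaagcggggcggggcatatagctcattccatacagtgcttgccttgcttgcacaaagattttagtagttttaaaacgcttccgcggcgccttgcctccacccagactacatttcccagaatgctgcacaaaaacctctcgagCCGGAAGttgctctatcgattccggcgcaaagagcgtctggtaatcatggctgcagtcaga
Mrps27: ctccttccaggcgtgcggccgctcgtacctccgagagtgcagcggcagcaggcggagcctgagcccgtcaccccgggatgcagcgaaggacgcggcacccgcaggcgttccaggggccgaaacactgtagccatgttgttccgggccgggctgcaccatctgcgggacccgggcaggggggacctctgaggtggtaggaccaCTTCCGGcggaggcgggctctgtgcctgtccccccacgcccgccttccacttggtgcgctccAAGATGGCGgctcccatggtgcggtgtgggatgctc
Mrpl37: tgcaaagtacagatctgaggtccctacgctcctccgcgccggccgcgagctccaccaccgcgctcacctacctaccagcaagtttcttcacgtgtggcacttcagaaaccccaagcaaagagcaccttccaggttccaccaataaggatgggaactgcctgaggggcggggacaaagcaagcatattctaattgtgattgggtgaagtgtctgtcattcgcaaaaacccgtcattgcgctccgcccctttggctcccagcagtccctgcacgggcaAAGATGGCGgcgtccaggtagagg
Mrps11: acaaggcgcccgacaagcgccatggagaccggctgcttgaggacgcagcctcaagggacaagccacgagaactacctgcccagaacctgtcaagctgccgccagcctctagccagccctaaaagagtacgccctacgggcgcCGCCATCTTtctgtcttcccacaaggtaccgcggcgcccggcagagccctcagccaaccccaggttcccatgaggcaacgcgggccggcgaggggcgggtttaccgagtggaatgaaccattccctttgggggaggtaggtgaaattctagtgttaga
Mrpl10: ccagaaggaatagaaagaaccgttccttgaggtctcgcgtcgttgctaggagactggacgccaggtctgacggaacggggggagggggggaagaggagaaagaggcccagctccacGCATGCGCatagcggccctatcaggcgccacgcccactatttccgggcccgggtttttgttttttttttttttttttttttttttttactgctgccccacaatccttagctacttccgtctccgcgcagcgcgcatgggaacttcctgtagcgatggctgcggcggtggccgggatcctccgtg
Mrps2: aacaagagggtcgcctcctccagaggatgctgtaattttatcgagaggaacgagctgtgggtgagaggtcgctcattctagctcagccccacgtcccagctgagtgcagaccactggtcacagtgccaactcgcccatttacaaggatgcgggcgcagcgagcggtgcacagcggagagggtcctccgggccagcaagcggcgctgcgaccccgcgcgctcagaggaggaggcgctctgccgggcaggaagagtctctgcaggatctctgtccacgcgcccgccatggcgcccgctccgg

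The members' motifs can be set beside their response. Of the 26 members with an ETS match, 3 were lower with USP28 virus than in control, and of the 43 with a window and no ETS match, 8 were, against 6.58% lower of all genes tested. The median log2 difference was -0.21 in the first set and -0.24 in the second. Among the 8 members with a YY1 match, 3 were lower (Mrps27, Mrpl37 and Mrps11), and the median was -0.40. Among the 8 with an NRF1 core, 1 was lower, and the median was -0.23. These are descriptions, with no test.

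**Figure D1:**
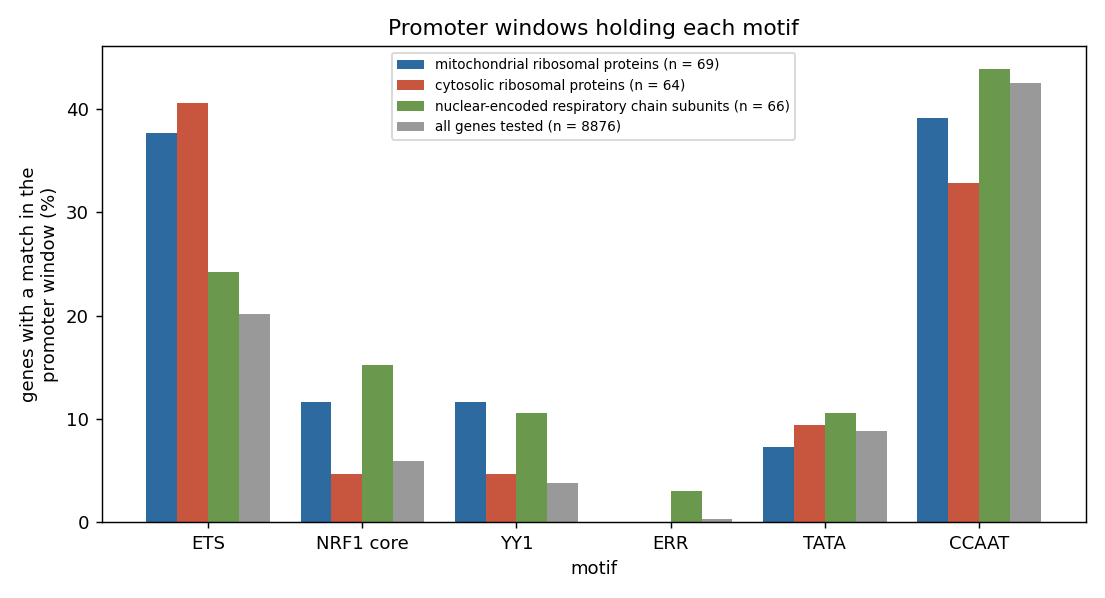
Share of genes whose promoter window holds each motif, in percent, for 69 mitochondrial ribosomal proteins, 64 cytosolic ribosomal proteins, 66 nuclear-encoded respiratory chain subunits and the 8876 tested genes with a window. The ETS share is 37.7% in mitochondrial and 40.6% in cytosolic ribosomal proteins, against 20.2% of tested genes.

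The values are RPKM, reads per kilobase of gene length relative to the library's counted reads, rescaled between libraries, and all levels below are on that scaled RPKM scale. Depth recovered from the values was 35970332 to 56497662 reads, and mitochondrially encoded genes took 15.7% to 19.9% of them. All 78 members passed the filter of 0.5 RPKM in at least 3 libraries, as did 14104 genes in all, and the lowest count behind a member's value was 85 reads. Usp28 averaged 13.2 ± 0.602 in control libraries, 8.48 ± 1.35 in null-virus libraries and 10.7 ± 0.897 in USP28-virus libraries (SD, n = 3). Cardiomyocyte markers were high, and the 5 adipocyte and 6 lymphocyte markers were under the filter. Null-virus replicate 1 stood apart, with a mean departure from its group of 0.334 on the log2 scale over all genes tested, against 0.145 to 0.214 in the other 8 libraries. The main counts of calls are therefore given with and without it.

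The same library stood apart in the members. Summed over members it reached 2190, against 1440 and 1410 in the other null-virus libraries, 1580 to 1670 in control and 1300 to 1450 with USP28 virus. In it, 68 of 78 members were above the control mean, against 18 and 16 in null-virus replicates 2 and 3 and 6 to 19 in the USP28-virus libraries. It held the highest of the 9 values for 62 members. Replicates 2 and 3 were below every control library for 51 and 55 members. Such counts for single libraries were not made over all genes, so how far they are particular to the members is not shown. All 3 null-virus libraries were below every control library for 8 members, against 21.6% of all genes tested. The median log2 difference from the control mean was 0.39, -0.16 and -0.20 over members in null-virus replicates 1 to 3, and 0, 0 and 0.01 over all genes tested. The members' share of counted reads was 0.291% to 0.292% in control, 0.323%, 0.272% and 0.266% in null-virus replicates 1 to 3, and 0.242% to 0.265% with USP28 virus.

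**Figure D2:**
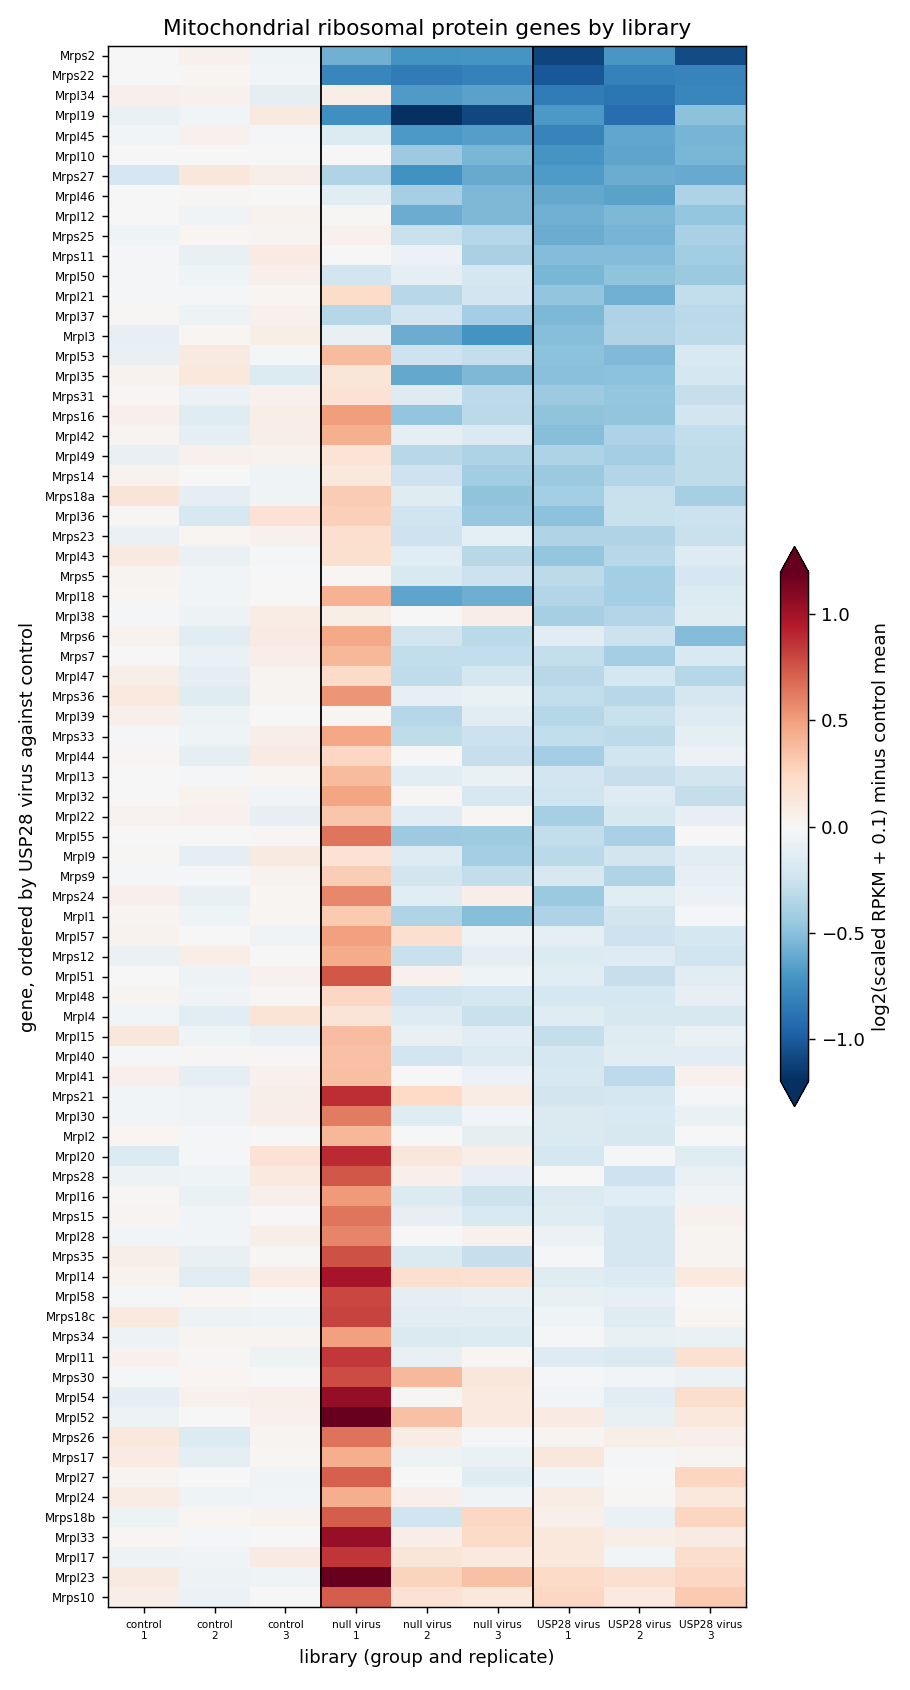
Log2(scaled RPKM + 0.1) of each of the 78 members in each library, minus the control mean, with genes ordered by USP28 virus against control. Null-virus replicate 1 is above the control mean for 68 members, and the other 5 db/db libraries for 6 to 19.

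Levels per gene length differed widely between members. Mrpl42, a large subunit protein with no bacterial counterpart (chromosome 10, 95480806 to 95501927), was highest at a mean of 278 over the 9 libraries. Next were Mrpl18 of the central protuberance (87.8), the stalk protein Mrpl12 (67.7) and Mrpl2 (58.3), whose bacterial counterpart lies near the catalytic centre. The lowest were Mrps17 (1.71), Mrpl19 (2.05), Mrps2 (2.48) and Mrpl36 (2.68). The median member stood at 13.1, and 43 members were above 10. Gene lengths in the table ran from 566 to 8631 bases among members. Mrpl42 was 304, 275 and 311 in control, 399, 275 and 263 with null virus, and 208, 229 and 241 with USP28 virus. Its USP28-virus values were below all others, with a log2 difference of -0.39 from control that did not pass (SE 0.16, adjusted p = 0.16), or adjusted p = 0.0064 without null-virus replicate 1.

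Against control, db/db hearts given null virus had 6 members lower and 0 higher at an adjusted p under 0.05, with the other 72 not passing. The lower members were Mrps22, Mrpl19, Mrps2, Mrps27, Mrpl45 and Mrpl37. Of all genes tested, 12% were lower and 10.2% higher, so the 7.69% of members that were lower lay under the background. The median log2 difference was -0.01 over members and 0.01 over all genes tested. Without null-virus replicate 1, the remaining 2 libraries gave 26 members lower (33.3%) and 2 higher, against 16.4% lower and 15.3% higher of 14003 genes, and the median over members was -0.19 against 0. The first 6 were among the 26. Leaving out control replicate 2 or control replicate 3 left 3 lower members. The comparison holds genotype, virus and any strain difference together.

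Mrps22, a small subunit protein with no bacterial counterpart whose human form is mutated in a mitochondrial disease that can affect the heart, lies on chromosome 9 from 98588730 to 98601660 on the minus strand of GRCm38. It was 6.37, 6.49 and 6.24 in control, 3.67, 3.52 and 3.59 with null virus, and 3.10, 3.58 and 3.61 with USP28 virus. Every db/db library, null-virus replicate 1 included, lay below every control library, and the 2 db/db groups overlapped. It fell by 0.81 on the log2 scale with null virus (SE 0.09, adjusted p = 0.0012) and by 0.88 with USP28 virus (SE 0.09, adjusted p = 0.0025), to 56.4% and 53.9% of the control mean. Both calls held in each of 9 fits that left out 1 library.

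Mrps2, a small subunit protein with a bacterial counterpart (chromosome 2, 28468066 to 28471178), was 3.51, 3.63 and 3.37 in control, 2.31, 2.09 and 2.10 with null virus, and 1.58, 2.12 and 1.61 with USP28 virus. The db/db libraries did not overlap with control, and the 2 db/db groups overlapped with each other. It fell by 0.67 with null virus (SE 0.13, adjusted p = 0.008) and by 0.96 with USP28 virus (SE 0.13, adjusted p = 0.0045), and both calls held in all 9 fits that left out 1 library.

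Mrpl19 is a large subunit protein with a bacterial counterpart (chromosome 6, 81957851 to 81965958). It was 2.78, 2.88 and 3.17 in control, 1.73, 1.17 and 1.33 with null virus, and 1.78, 1.51 and 2.06 with USP28 virus. Every control library was above every db/db library. It fell by 1.03 with null virus (SE 0.16, adjusted p = 0.0041), the farthest of the members from control in that comparison, and by 0.70 with USP28 virus (SE 0.16, adjusted p = 0.028). Its exons share 36% of their bases with Gcfc2 on the opposite strand. No source used here gives the strand setting of the counting, so reads of the pair may not be separated.

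Mrps27 binds the small subunit's ribosomal RNA (chromosome 13, 99344786 to 99415561). It was 11.1, 14.0 and 13.4 in control, 9.89, 7.66 and 8.34 with null virus, and 7.93, 8.41 and 8.35 with USP28 virus, and no db/db library reached the lowest control. It fell by 0.57 with null virus (SE 0.12, adjusted p = 0.014) and by 0.63 with USP28 virus (SE 0.12, adjusted p = 0.016). An opposite-strand gene, 6430562O15Rik, shares 24.2% of its exonic bases. Mrpl45, which anchors the large subunit to the inner membrane near the peptide exit (chromosome 11, 97315716 to 97329920), was 17.1, 18.1 and 17.2 in control, 15.6, 10.8 and 11 with null virus, and 9.98, 11.3 and 11.8 with USP28 virus. Null-virus replicate 1 was the db/db library nearest to control. It fell by 0.50 with null virus (SE 0.15, adjusted p = 0.039) and by 0.66 with USP28 virus (SE 0.15, adjusted p = 0.023). Mrpl37, a large subunit protein with no bacterial counterpart (chromosome 4, 107055874 to 107066868), was 6.97, 6.62 and 7.18, then 5.44, 5.90 and 5.20, then 4.72, 5.34 and 5.52, in the same order of groups. It fell by 0.32 (SE 0.10, adjusted p = 0.043) and 0.41 (SE 0.10, adjusted p = 0.029), with no overlap with control. Of these members, Mrpl45 held its null-virus call in 2 of 9 fits that left out 1 library, Mrpl37 in 3, and Mrps27 in 7. With USP28 virus, Mrpl19 and Mrps27 held in 4 and Mrpl45 and Mrpl37 in 3.

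**Figure D3:**
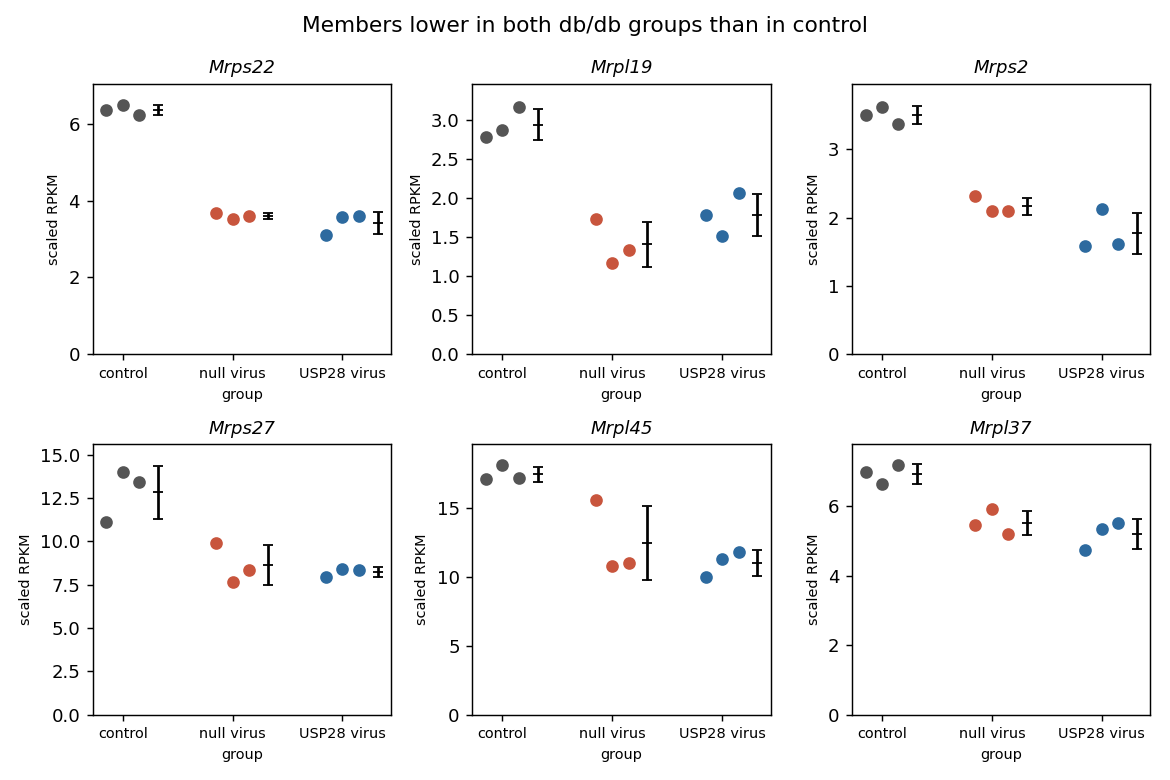
Scaled RPKM of the 6 members lower in both db/db groups than in control, with a point for each library and bars at the mean ± SD of 3. In every panel each db/db library lies below the lowest control library.

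USP28-virus hearts had 12 members lower than control and 0 higher, which is 15.4% of members against 6.58% lower and 5.29% higher of all genes tested. They were the 6 above with Mrpl10, Mrpl34, Mrpl46, Mrpl50, Mrps11 and Mrps25. The comparison shares its control libraries with the previous one. The median log2 difference was -0.23 over members and -0.01 over all genes, and 67 of 78 differences were below 0. USP28-virus values lay below all control values for 45 members (57.7%) and above all of them for 3, against 24.3% and 21.2% of all genes tested. For null virus the same count was 8 below and 8 above, against 21.6% and 19.7%. Without null-virus replicate 1, which enters this comparison only through the shared spread and the scaling, 35 members were lower (44.9%) and 1 was higher, Mrpl23, against 15.8% and 13.3% of genes. A fit of these 2 groups alone gave 33 lower, against 15.5% lower and 12.4% higher of 13623 genes. In the other direction, between 2 and 5 were lower when any control or USP28-virus library was left out, against 1.26% to 3.72% of genes.

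Members of both subunits were among the calls. With USP28 virus, 7 of 49 Mrpl and 5 of 29 Mrps members were lower than control, with medians of -0.23 and -0.24. Of all genes tested, 6.58% were lower in this comparison. By origin, 3 of 30 large subunit proteins with a bacterial counterpart and 4 of 21 without were lower, as were 2 of 16 and 3 of 10 in the small subunit. With null-virus replicate 1 left out, 21 of the 49 Mrpl and 14 of the 29 Mrps members were lower, against 15.8% of all genes. By origin the counts were then 11 of 30 and 11 of 21 in the large subunit, and 6 of 16 and 6 of 10 in the small subunit.

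Mrpl50 (chromosome 4, 49512596 to 49521093), a large subunit protein, was 17.2, 16.8 and 18.1 in control, 14.9, 16.1 and 15 with null virus, and 11.8, 12.4 and 12.7 with USP28 virus. The 3 groups formed 3 separate steps. It fell by 0.49 with USP28 virus against control (SE 0.08, adjusted p = 0.0093). Between the db/db groups its difference of -0.31 did not pass (SE 0.08, adjusted p = 0.12), but without null-virus replicate 1 it was -0.33 with an adjusted p of 0.031.

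Mrpl34, with a bacterial counterpart (chromosome 8, 71464959 to 71465747), was 31.0, 30.9 and 27.5 in control, 31.5, 18.5 and 19.0 with null virus, and 16.6, 16.3 and 17.2 with USP28 virus. Null-virus replicate 1 was above the highest control value and the other 5 db/db libraries were below it. It fell by 0.83 with USP28 virus (SE 0.19, adjusted p = 0.025). Mrpl10, which forms the stalk base that holds Mrpl12 (chromosome 11, 97041560 to 97049213), was 5.55, 5.60 and 5.54, then 5.55, 4.09 and 3.77, then 3.37, 3.55 and 3.77. It too had null-virus replicate 1 at the control level, and fell by 0.63 with USP28 virus (SE 0.14, adjusted p = 0.024). Of its exonic bases, 14.1% are shared with Gm11574 on the opposite strand.

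Mrpl46 of the central protuberance (chromosome 7, 78775236 to 78783531, minus strand) and Mrps11 of the small subunit platform (chromosome 7, 78783119 to 78792989, plus strand) face away from each other, with starts 412 bases apart inside overlapping spans. Mrpl46 was 38.4, 38.9 and 38.5 in control, 35.1, 29.3 and 26.6 with null virus, and 25.2, 24.7 and 29.9 with USP28 virus. Mrps11 was 8.77, 8.32 and 9.50, then 8.87, 8.43 and 6.74, then 6.16, 6.14 and 6.59. Both lay below control in every USP28-virus library and fell by 0.54 (SE 0.12, adjusted p = 0.025) and 0.49 (SE 0.12, adjusted p = 0.031). Opposite-strand overlap covers 12.2% of the exonic bases of Mrpl46 and 7.97% of those of Mrps11. Mrps25 (chromosome 6, 92169525 to 92184033), a small subunit protein, was 17.2, 18.1 and 18.2, then 18.5, 14.8 and 14.0, then 11.8, 12.1 and 13.6, with its 3 lowest values in the USP28-virus libraries. It fell by 0.51 with USP28 virus (SE 0.12, adjusted p = 0.027). It shares 69.8% of its exonic bases with Nr2c2 on the opposite strand, so its value is uncertain. With USP28 virus, Mrpl50 held its call against control in 7 of 9 fits that left out 1 library, and Mrpl46 in 4. Mrpl10, Mrpl34, Mrps11 and Mrps25 each held theirs in 3.

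**Figure D4:**
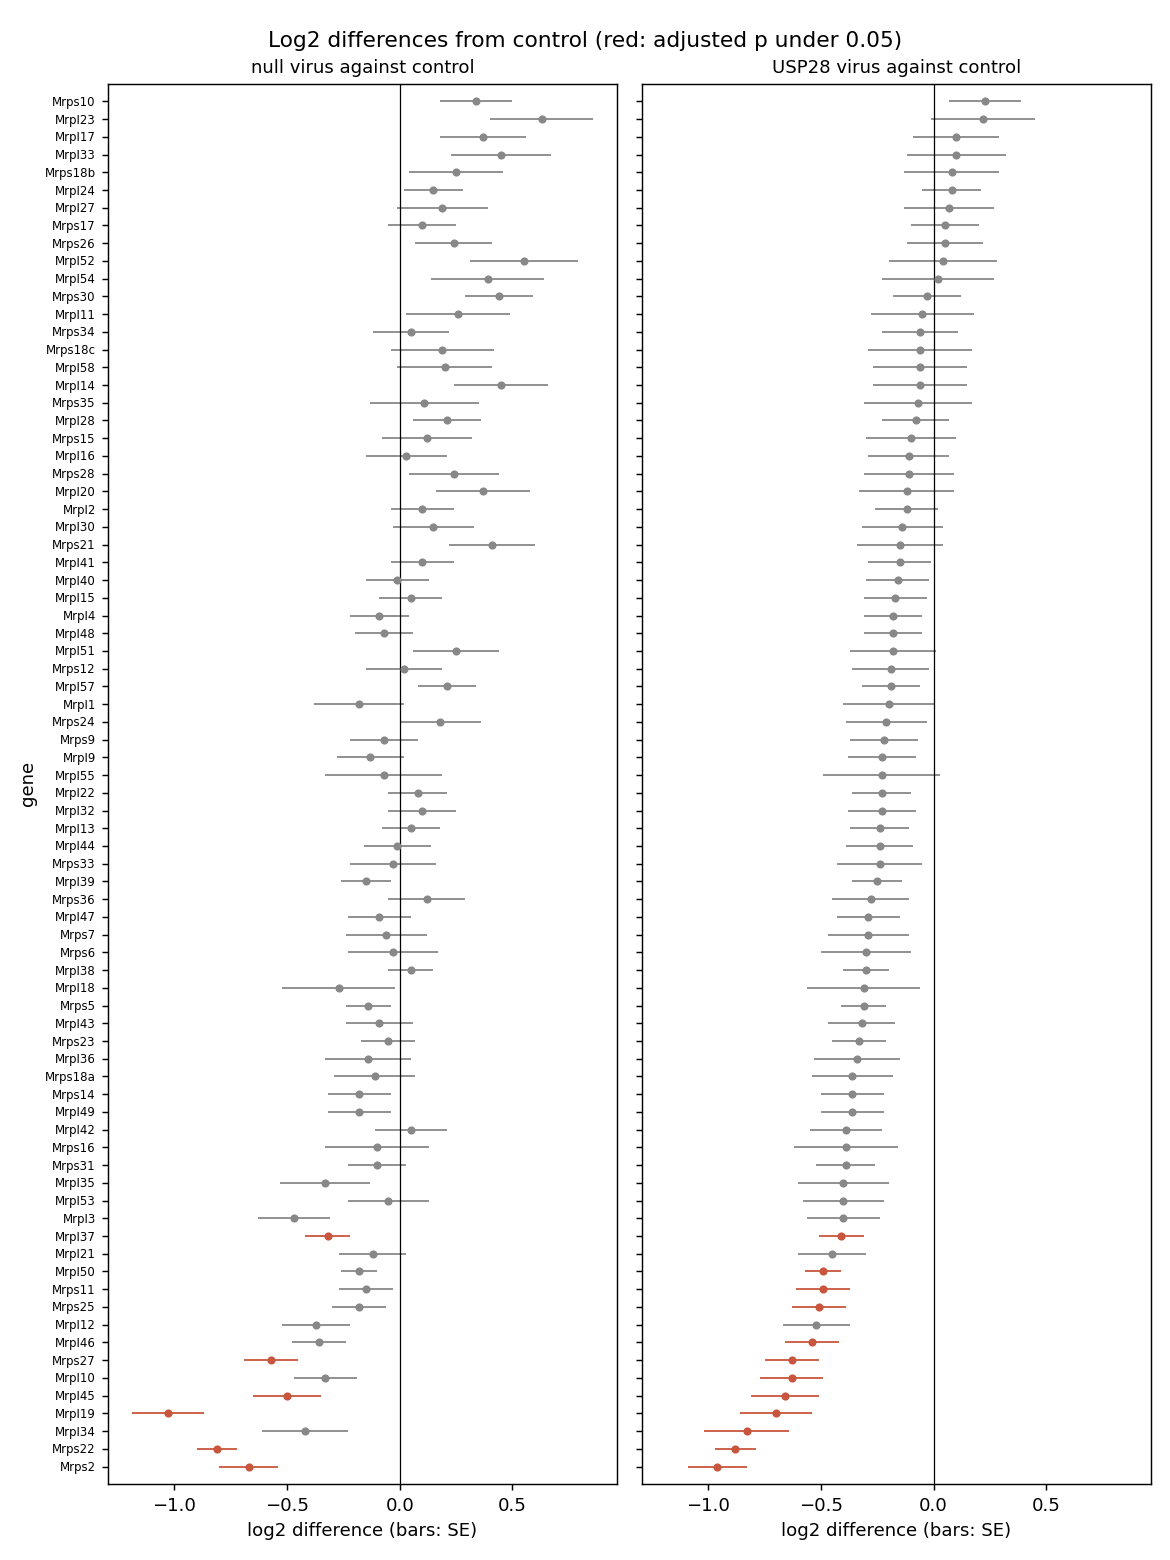
Log2 difference from control (x axis, bars are SE of the fit) of the 78 members for null virus on the left and USP28 virus on the right, in the order of the right panel. Red marks an adjusted p under 0.05, with 6 members on the left and 12 on the right, all below 0.

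Between the db/db groups, USP28 virus against null virus, 0 of 78 members passed, 15 had an unadjusted p under 0.05, and limma voom on the recovered reads also called 0. Of all genes, 0.269% were higher and 0.156% lower. The median over members was -0.23 against -0.01 over all genes, and 76 of 78 differences were below 0. Without null-virus replicate 1 the median was -0.04, 47 of 78 were below 0, and 1 member, Mrpl50, was lower, against 3.62% lower and 2.91% higher of all genes. The groups did not overlap for 16 members, all lower with USP28 virus, against 12.3% lower and 10.9% higher of genes tested. A set of 6 members had the largest opposite log2 differences in the 2 comparisons that share the null-virus libraries, and were named by that rule: Mrpl52, Mrpl14, Mrps30, Mrps21, Mrpl23 and Mrpl54. Mrpl52 was 14.3, 15 and 15.5 in control, 34.3, 19.1 and 16.2 with null virus, and 16.0, 14.0 and 16.3 with USP28 virus. Its null-virus values ranged from 16.2 to 34.3, and its highest was in replicate 1. None of the 6 passed in either comparison. Mrps30, a large subunit protein despite its name, was 13, 13.4 and 13.2, then 22.8, 17.3 and 14.5, then 13.1, 12.9 and 12.6, and Mrpl23 at the peptide exit was 4.99, 4.44 and 4.46, then 11.2, 5.59 and 5.91, then 5.45, 5.28 and 5.52. Both were higher with null virus than control without replicate 1, by 0.27 (adjusted p = 0.042) and 0.31 (adjusted p = 0.021).

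Members with particular roles are given by their values whatever they showed. Of the stalk, Mrpl12, which also binds the mitochondrial RNA polymerase, was 81.4, 79.7 and 84.5 in control, 82.4, 54.2 and 56.3 with null virus, and 55.0, 56.4 and 59.4 with USP28 virus. All db/db libraries but null-virus replicate 1 were below control, and the difference of -0.52 with USP28 virus did not pass (SE 0.15, adjusted p = 0.058), or adjusted p = 0.00075 without that library. Mrpl11, the other stalk protein, was 4.42 ± 0.181 in control and 4.30 ± 0.643 with USP28 virus. Mrpl32, matured by the m-AAA protease, was 18.7 ± 0.532 and 16.0 ± 0.749 with no overlap (-0.23, adjusted p = 0.37). Mrpl44 was 8.86 ± 0.682 and 7.51 ± 0.892, and Mrpl58, a peptidyl-tRNA hydrolase built into the large subunit, 8.86 ± 0.121 and 8.47 ± 0.286. Mrps12 of the decoding centre was 12.9 ± 0.716 and 11.3 ± 0.358. Of the 3 related proteins of the S18 family, Mrps18a was 7.94 ± 0.802 and 6.16 ± 0.341, Mrps18b 4.51 ± 0.173 and 4.79 ± 0.573, and Mrps18c 19.7 ± 1.44 and 18.8 ± 1.14. Mrps34 was 10.9 ± 0.436 and 10.4 ± 0.272, and Mrps36, assigned in other work to the oxoglutarate dehydrogenase complex, 10.7 ± 1 and 8.80 ± 0.423. None of these passed in the fit of all 9 libraries. Mrps34 shares exonic bases with neighbours on both strands.

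Factors that work with the mitochondrial ribosome were counted from lists. Of 19 translation factors, 9 were lower and 1 higher with null virus, and 7 were lower and 0 higher with USP28 virus. The background was 12% lower and 10.2% higher of all genes with null virus, and 6.58% lower and 5.29% higher with USP28 virus. Leaving out null-virus replicate 1 gave 12 lower with null virus and 12 with USP28 virus, where 16.4% and 15.8% of all genes were lower. Taco1, the activator of translation of cytochrome oxidase subunit I, was 20.4, 19.8 and 20.4 in control, 6.14, 6.48 and 8.19 with null virus, and 7.20, 9.62 and 10.2 with USP28 virus. It was below control in every db/db library, and fell by 1.54 (SE 0.15, adjusted p = 0.00092) and 1.17 (SE 0.15, adjusted p = 0.0043). The initiation factor Mtif2 fell by 0.81 with null virus (adjusted p = 0.0013) and by 0.64 with USP28 virus (adjusted p = 0.006). Qrsl1, a subunit of the enzyme that makes glutaminyl-tRNA, fell by 0.76 with null virus (adjusted p = 0.01). The elongation factor Gfm1 fell by 0.63 and 0.64 (adjusted p = 0.0051 and 0.0096). The recycling factor Gfm2 fell by 0.63 and 0.65 (adjusted p = 0.013 and 0.019). Slirp, which stabilises mitochondrial messenger RNA and is named after its value was seen as the 1 higher gene, rose by 0.54 with null virus (SE 0.15, adjusted p = 0.031). With USP28 virus it was 0.18 above control (adjusted p = 0.47). Of 28 assembly factors, 6 were lower and 3 higher with null virus, and 2 were lower with USP28 virus (Fastkd2, -0.57, adjusted p = 0.016, and Noa1, -0.54, adjusted p = 0.023). The counts without that library were 7 lower and 4 higher with null virus, and 8 lower and 2 higher with USP28 virus. Among the null-virus calls were Gtpbp10, a GTPase of large subunit assembly (-0.73, adjusted p = 0.039), Fastkd2 (-0.59, adjusted p = 0.0085), Tfb1m, which methylates the small subunit's ribosomal RNA (-0.81, adjusted p = 0.017), and Gtpbp6, which helps take ribosomes apart (0.67, adjusted p = 0.0087). Of 8 tested genes of mitochondrial DNA transcription and replication, Mterf2, Twnk and Tfam were lower in both comparisons with control, and without that library 4 were lower with null virus and 3 with USP28 virus. Of 5 mitochondrial ribosome proteins with other names, Ptcd3 was lower with null virus (-0.61, adjusted p = 0.025) and 0 passed with USP28 virus, or 1 and 2 lower without null-virus replicate 1. Of the 10 regulators listed, Nrf1 and Myc were higher and Ppargc1a and Ppargc1b lower with null virus, and 0 passed with USP28 virus. When it was left out, 2 regulators were higher and 2 lower with null virus, and with USP28 virus Nrf1 was higher by 0.34 (adjusted p = 0.043), Myc was higher by 0.83 (adjusted p = 0.042) and Ppargc1a fell by 0.56 (adjusted p = 0.014). Of 15 mitochondrially encoded RNAs, mt-Nd4l alone passed, with null virus, and without that library 1 was lower with null virus and 3 with USP28 virus. In the comparison of the db/db groups, 0 genes of these lists passed. Ppargc1b, without that library, was higher with USP28 virus than with null virus by 1.07 (adjusted p = 0.044) and Gadd45gip1, a large subunit protein, fell by 0.28 (adjusted p = 0.039).

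Cytosolic ribosomal proteins, which build the ribosome outside mitochondria, were set beside the members. With null virus, 58 of 88 tested were higher than control and 0 lower, with a median log2 difference of 0.85, and without replicate 1, 79 were higher with a median of 0.51. With USP28 virus, 1 was higher and the median was 0.34, and 73 were higher without null-virus replicate 1. Nuclear-encoded respiratory chain subunits had 5 higher and 1 lower of 83 with null virus (median 0.40, and 0.12 without replicate 1) and 0 higher and 1 lower with USP28 virus (median -0.03). These subunits had 14 higher and 2 lower with null virus, and 6 higher and 7 lower with USP28 virus, without null-virus replicate 1. Of all genes tested, 10.2% were higher and 12% lower with null virus, and 5.29% and 6.58% with USP28 virus. Without null-virus replicate 1, the shares were 15.3% and 16.4% with null virus, and 13.3% and 15.8% with USP28 virus. No test of the difference between these lists and the members was run.

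**Figure D5:**
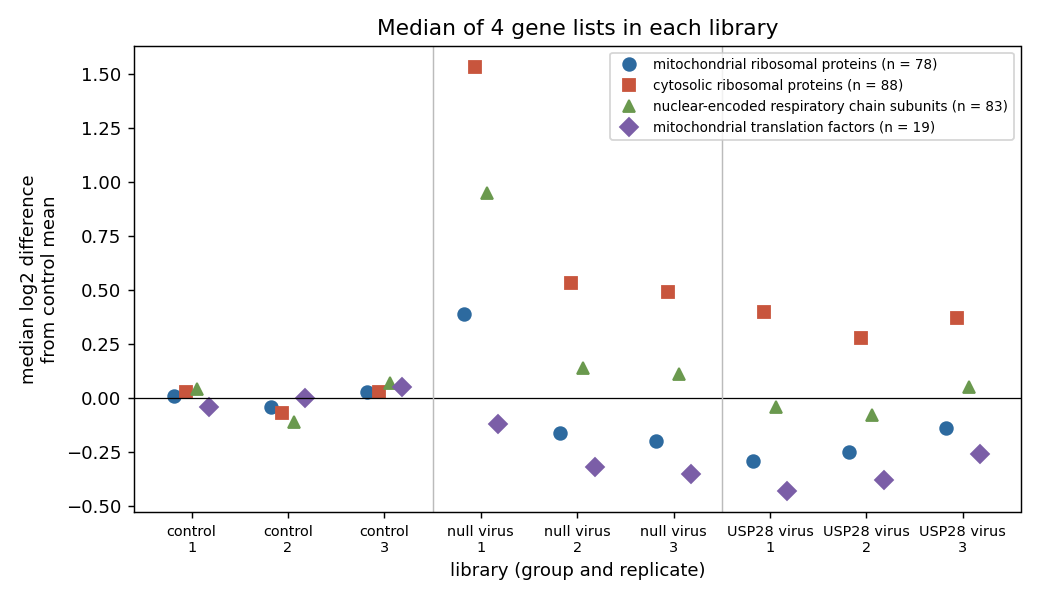
Median log2 difference from the control mean of 4 gene lists in each of the 9 libraries. Null-virus replicate 1 has the highest medians of mitochondrial ribosomal proteins (0.39), cytosolic ribosomal proteins (1.53) and respiratory chain subunits (0.95), and in the other 5 db/db libraries the mitochondrial ribosomal proteins lie at -0.29 to -0.14.

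Some markers of other cell types also differed between the groups. Of all genes tested, 12% were lower and 10.2% higher with null virus than in control, and 6.58% and 5.29% with USP28 virus. Endothelial markers were higher with null virus for 4 of 8 and with USP28 virus for 2 of 8, and summed to 156 to 181 in control, 311 to 397 with null virus and 251 to 278 with USP28 virus. Fibroblast markers were lower for 5 of 8 and 3 of 8, and macrophage markers for 2 of 8 and 1 of 8. The fibroblast sums overlapped, at 107 to 122 in control, 99.9 to 111 with null virus and 109 to 120 with USP28 virus. In the same order, the macrophage sums were 76.4 to 99.7, 67.1 to 92.3 and 62.3 to 68.5. Of 9 cardiomyocyte markers, Actc1 and Atp2a2 were lower in both comparisons, with the list's sum at 31000 to 35500 in control, 25800 to 38400 with null virus and 28100 to 32200 with USP28 virus. Without null-virus replicate 1, 16.4% of all genes were lower and 15.3% higher with null virus, and 15.8% and 13.3% with USP28 virus. The endothelial counts were then 7 higher and 1 lower with null virus and 5 higher with USP28 virus. The fibroblast counts were then 5 lower and 1 higher with null virus and 3 lower with USP28 virus, and the macrophage counts 2 and 4 lower. The cardiomyocyte counts were then 5 lower and 1 higher with null virus, and 5 lower with USP28 virus. Between the db/db groups, 1 fibroblast marker, Lum, was higher with USP28 virus (0.99, adjusted p = 0.029). There, 0 endothelial, macrophage or cardiomyocyte markers passed, against 0.269% higher and 0.156% lower of all genes. Without null-virus replicate 1, 3 fibroblast markers were higher and 2 endothelial markers lower. Then 1 cardiomyocyte marker was higher and 1 lower, against 2.91% higher and 3.62% lower of all genes. Of 3 skeletal muscle markers tested, Acta1 and Ckm were lower in both comparisons, and the list summed to 432 to 589 in control, 267 to 313 with null virus and 227 to 249 with USP28 virus. In the fit without null-virus replicate 1, 1 skeletal muscle marker was lower with null virus, and 2 were lower and 1 higher with USP28 virus. Atrial markers had 0 of 3 tested passing in any comparison. USP28-virus replicate 1 stood apart in them, with Myl7 at 89 against 0 and 0 in the other USP28-virus libraries, Myl4 at 50.1 against 0.238 and 0.313, and Nppa at 1270 against 146 and 173. It also had the lowest median of the members among the 9 libraries, at -0.29, with USP28-virus replicate 2 at -0.25. Without USP28-virus replicate 1, 2 members were lower than control with USP28 virus, against 1.26% of genes, and the members' median was -0.20. The loss of calls was not particular to it. Leaving out control replicate 3 also left 2, against 1.42% of genes. Leaving out control replicate 2 or USP28-virus replicate 2 left 3 each, against 1.68% and 3.07%. No endothelial, fibroblast, macrophage or cardiomyocyte marker was at 0 in all libraries. Their part in the members' values was not tested, and in bulk tissue fewer cells of a type and less RNA per cell cannot be told apart.

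Genomic position was a feature the rule did not use. Of the 78 members, 33 (42.3%) start within 1000 bases of a protein-coding gene facing the other way, against 12.9% of 17571 protein-coding genes of the table. That background takes in genes under the filter, which all 78 members passed, and the share over tested genes alone was not computed. Of the 28 such partners tested, 4 were lower and 2 higher with USP28 virus than in control, against 6.58% lower and 5.29% higher of all genes tested. Mrpl46 and Mrps11, each the partner of the other, were among the 4 lower. Without null-virus replicate 1 the counts were 4 and 4, against 15.8% and 13.3%. With null virus, 2 were lower and 2 higher, against 12% and 10.2%, or 4 and 3 without that library, against 16.4% and 15.3%. The partners named next were chosen after their values were seen. Ptcd2, the partner of Mrps27 with starts 81 bases apart, was 17.8, 19.2 and 20.9 in control, 13.9, 14.6 and 16.7 with null virus, and 11.3, 13.1 and 14.1 with USP28 virus. It was below control in every db/db library and fell by 0.58 with USP28 virus (SE 0.12, adjusted p = 0.018). Twnk, the mitochondrial DNA helicase and partner of Mrpl43, fell by 0.42 with null virus (adjusted p = 0.028) and by 0.65 with USP28 virus (adjusted p = 0.01). Fau, the partner of Mrpl49 and a cytosolic ribosomal protein gene, was 99.5, 96.8 and 106 in control, 340, 157 and 140 with null virus, and 149, 136 and 156 with USP28 virus, and rose by 0.95 with null virus (SE 0.29, adjusted p = 0.044). Without null-virus replicate 1, it rose by 0.55 with null virus (adjusted p = 0.0025) and by 0.54 with USP28 virus (adjusted p = 0.0021). The 2 higher partners with USP28 virus were Ppp1r10 and Pnpla7. Ppp1r10, the partner of Mrps18b, was 2.98, 1.57 and 2.2 in control, 2.32, 2.68 and 3.25 with null virus, and 5.06, 4.17 and 4.6 with USP28 virus, and rose by 1.05 with USP28 virus (SE 0.22, adjusted p = 0.019). Its USP28-virus values were above all others. Pnpla7, the partner of Mrpl41, rose by 0.78 with null virus (SE 0.12, adjusted p = 0.0042) and by 0.48 with USP28 virus (SE 0.12, adjusted p = 0.039). Of the 33 members with a partner and the 45 without, 6 each were lower with USP28 virus.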

How the data were processed

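Polyadenylated RNA was made into directional libraries, per the labels' protocols. The submitters' processing notes name HISAT2 and DESeq2, without version or role, and a human build, GRCh38. The table's symbols and coordinates are mouse. Since 25482 of 30128 spans equal GENCODE M21, coordinates refer to GRCm38. No source used here names the counting program. The deposited table holds RPKM, a unit read from the values: 99.9839% are whole multiples of 1 read within 0.01 reads, which gave the depth.

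Scaling used a trimmed mean of M values (30% of ratios and 5% of levels trimmed). Limma 3.58.1 (R 4.3.3, trended robust prior) tested log2 of scaled RPKM plus a pseudocount of 0.1, a scale that understates changes of low genes. Genes with at least 0.5 RPKM in 3 libraries or more were kept, 14104 in all, and p-values were adjusted by Benjamini-Hochberg over all of them. A single fit held all 9 libraries. The scripts were tested on simulated data. Members and lists were chosen with earlier results of these data known. Named were the called members, the 4 highest and 4 lowest, 6 with opposite differences, members with particular roles, and up to 4 called genes with the largest change from other lists.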

Additional observations from a re-analysis of the deposited data

How the results depend on the processing

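The null-virus calls (6 members) numbered 11 with library totals alone, 25 without null-virus replicate 1 and the length trend together, and 3 to 28 over the fits that left out 1 library. Of all genes, 8.5% were lower and 8.71% higher in the first of these settings, and 15.7% and 15.5% in the second. Over the fits that left out 1 library, 5.47% to 16.4% of genes were lower and 4.79% to 15.3% higher. The USP28-virus calls against control (12 members) numbered 4 with no filter, 33 with the 2 groups alone, 39 without null-virus replicate 1 and the length trend, and 2 to 36 with 1 library left out. The calls between the db/db groups (0 members) numbered 2 and 0 to 1 in the last 2 settings. These counts take lower and higher calls together. For USP28 virus against control, 1.68% of all genes were lower and 1.4% higher with no filter, and 15.5% and 12.4% with the 2 groups alone. The shares were 15.3% and 14% without null-virus replicate 1 and the length trend, and 1.26% to 15.8% and 1.36% to 13.3% with 1 library left out. Between the db/db groups those 2 settings had 3.47% and 2.89%, and 0% to 3.62% and 0% to 2.91%. A different number of genes (30128 with no filter, against 14104) or fewer samples enter some of these settings by construction. The cause of the other shifts was not tested. The median of USP28 virus against control was -0.15 with library totals alone, where the median of all genes moved to 0.07. None of the 18 member calls, and none of the calls of other pathway genes, changed sign under the settings run. The members' median for null virus against control, -0.01, did change sign, from -0.19 to 0.09 over the fits that left out 1 library (0.09 without null-virus replicate 2 or 3, and -0.19 without replicate 1). The setting without null-virus replicate 1 and the length trend, and that without values that are not whole reads, were chosen after seeing the data. The replicate number as a block gave 4, 0 and 8 lower members in null virus against control, USP28 virus against null virus and USP28 virus against control. Of all genes, 10.5%, 0% and 5.15% were lower there, in the same order. Same-numbered libraries shared only a number (correlations of their departures of -0.03 to 0.06), and the best match of a library in another group had its own number in 8 of 18 cases. Medians stayed within 0.01 of the values above under median of ratios scaling. Depth did not leave any member unmeasured, and 3 libraries a group limits which differences pass.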
